A study of Homo sapiens with 72 samples.

Results

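Arsenite-treated U2OS cells that had been given wild-type G3BP1 back were compared with arsenite-treated U2OS cells that lacked it. U2OS is a human osteosarcoma line, and in all cells compared here both G3BP1 and its paralog G3BP2 had been knocked out. The rescued cells carried a transient wild-type G3BP1 transgene, delivered with Lipofectamine, and were taken 24 h after transfection. Both arms received 200 uM sodium arsenite for 2 h. The comparison rests on 4 libraries of the 72 in the series, 2 of arsenite-treated knockout cells and 2 of arsenite-treated rescue cells. The same 2 genotypes without arsenite gave another 4 libraries. Knockout cells rescued with G3BP1 lacking its NTF2 domain and treated with arsenite gave 2 more. The knockout groups were untransfected, so the transgene and the transfection cannot be told apart in any difference below. Nothing in the labels states that the libraries of a group came from separate cultures, so the errors measure only the spread between these libraries, which may be technical.

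For each gene, the difference is the log2 fold change of arsenite-treated rescue cells minus that of arsenite-treated knockout cells, both taken against the same untreated knockout libraries. It was formed for the 16533 of 61541 genes whose base mean reached 10 normalised reads in both tables. A gene is called higher or lower at an adjusted p under 0.05. Normalised reads are reads divided by the library's size factor. They are given per library beside the differences, the libraries of a group in no order of replicate number.

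G3BP1 and G3BP2 are RNA-binding proteins that nucleate stress granules, the cytoplasmic bodies in which mRNAs released from stalled translation gather with translation factors. The NTF2-like domain of G3BP1 makes it a dimer and binds the partners CAPRIN1 and USP10. Arsenite oxidises and binds protein thiols. Its known transcriptional responses run through heat shock factor HSF1, the metal sensor MTF1, the antioxidant factor NRF2 and the kinase cascades that switch on immediate-early genes. Its known effect on translation is phosphorylation of eIF2alpha, which favours ATF4 synthesis and stress granule assembly.

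Promoter sequences are shown for 5 genes on which the pathway results turn. EGR2 and DUSP1 are immediate-early genes that were lower in the rescue. IFIT1 and IFI44L are interferon-stimulated genes that were also lower. HSPA6 is the heat-shock gene whose deposited values and reads disagreed. Each line is 200 bases ending at the annotated start (RefSeq, GRCh38.p14), 5′ to 3′ on the strand of the gene, with the motif in capitals. EGR2 lies at chr10:62816367-62816566 on the minus strand, upstream of 1 of its 3 annotated starts, and the capitals mark a CArG box (CC-N-TAT-NN-GG, N being any base), the element bound by serum response factor.
EGR2: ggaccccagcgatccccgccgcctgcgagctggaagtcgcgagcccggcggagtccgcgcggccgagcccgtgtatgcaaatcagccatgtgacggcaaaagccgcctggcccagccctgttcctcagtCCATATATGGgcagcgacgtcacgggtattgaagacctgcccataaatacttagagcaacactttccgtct
DUSP1 lies at chr5:172771196-172771395 on the minus strand, with a cAMP response element (CRE, TGACGTCA) in capitals, the letters bound by CREB and ATF factors.
DUSP1: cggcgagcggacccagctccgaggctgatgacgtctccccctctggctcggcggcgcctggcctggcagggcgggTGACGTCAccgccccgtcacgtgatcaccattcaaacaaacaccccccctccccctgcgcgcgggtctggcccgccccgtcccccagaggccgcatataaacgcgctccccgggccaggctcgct
IFIT1 lies at chr10:89392423-89392622 and IFI44L at chr1:78620248-78620447, both on the plus strand, and the capitals mark 2 matches in each to the interferon-stimulated response element (ISRE, GAAA-NN-GAAA), read on the opposite strand in IFIT1.
IFIT1: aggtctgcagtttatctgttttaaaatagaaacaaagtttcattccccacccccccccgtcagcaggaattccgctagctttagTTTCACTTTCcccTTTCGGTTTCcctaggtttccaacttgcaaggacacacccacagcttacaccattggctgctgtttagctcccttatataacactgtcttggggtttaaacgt
IFI44L: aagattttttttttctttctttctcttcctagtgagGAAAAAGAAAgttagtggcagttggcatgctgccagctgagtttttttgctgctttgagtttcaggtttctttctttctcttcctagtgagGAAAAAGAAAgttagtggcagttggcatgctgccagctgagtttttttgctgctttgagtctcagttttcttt
HSPA6 lies at chr1:161524340-161524539 on the plus strand, with a heat-shock element (HSE, GAA-NN-TTC-NN-GAA), the site of HSF1, in capitals and read on the opposite strand.
HSPA6: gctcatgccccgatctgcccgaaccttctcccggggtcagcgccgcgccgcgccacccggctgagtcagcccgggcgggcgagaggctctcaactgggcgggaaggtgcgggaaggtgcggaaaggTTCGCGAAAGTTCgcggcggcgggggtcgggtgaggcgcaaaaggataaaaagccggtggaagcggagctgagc
These matches begin 71 bases before the start in EGR2, 125 in DUSP1 and 74 in HSPA6, 103 and 116 in IFIT1, and 73 and 164 in IFI44L. Over the 27305 genes with a RefSeq promoter of 250 bases, searched on both strands, a CRE occurred in 2.03%, a CArG box in 1.31%, an ISRE in 3.71% and an HSE in 0.557%. Of the 26 immediate-early genes tested that had such a promoter, 4 held a CRE and 2 a CArG box. An ISRE was in 10 of 15 interferon-stimulated genes, and an HSE in 6 of 21 heat-shock genes. A match describes the letters of this window only.

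The 4 libraries held 12.63 to 27.76 M reads in genes (M, 1e6 reads), and the deepest were those of the rescue, at 27.76 and 19.07 M. Log2 levels of the libraries correlated at 0.991 within the treated knockout and at 0.992 within the treated rescue, and at 0.917 to 0.919 between the groups. The cells were labelled as bone osteosarcoma epithelial cells. Of 11 markers of the osteoblast lineage, 6 reached 10 normalised reads in all 4 libraries, and their summed level was 35246 to 36532 in the knockout and 28903 to 29076 in the rescue. The osteoblast marker IBSP was at 0 in all 4. The epithelial markers were low, at 55.3 to 80.8 and 56.2 to 66.8 summed over 6 genes, with EPCAM alone above 10 in all 4. Of 6 blood cell markers none reached 10 in all 4 libraries. Endothelial markers summed to 130.1 to 155.5 in the knockout and to 24.5 to 28.6 in the rescue, and only VWF was above 10 in all 4.

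Arsenite-treated rescue cells differed from arsenite-treated knockout cells in a large share of their transcripts. Of the 16533 genes tested, 4315 (26.1%) were higher in the rescue and 3185 (19.3%) were lower. Of the gene lists described below, 29 of 31 proteasome subunits, 75 of 78 ribosomal proteins and 14 of 19 NRF2 targets were higher. Lower were 22 of 35 AP-1 and immediate-early genes, 11 of 18 matrix proteins, 11 of 18 interferon-stimulated genes and 15 of 25 genes of cholesterol and fatty acid synthesis. In bulk RNA, fewer cells of a type and less RNA per cell cannot be told apart. The test was the deposited difference over its summed standard error, with Benjamini-Hochberg adjustment. The median of the 10782 genes whose base mean reached 100 was 0.19, so a gene with a small positive difference need not stand above the bulk. With that median subtracted, 3065 genes were called higher and 4118 lower, so the larger share moved from the higher to the lower side. Genes just inside and just outside the minimum level had similar differences, with medians of -0.36 over 277 genes with a base mean of 10 to 11 and -0.31 over 339 genes with 9 to 10.

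G3BP1 itself was at 3168 and 3277 normalised reads in the treated knockout and at 784731 and 803026 in the treated rescue, a difference of 7.98 (SE 0.08) on the log2 scale. It took 5.04% and 5.17% of all reads in genes in the rescue libraries. The knockout cells kept G3BP1 RNA at 0.0238% and 0.0247% of reads, so the RNA level does not test the knockout, and reads of the transgene and of the endogenous gene cannot be separated. G3BP2 stood at 1746 and 1734 normalised reads in the knockout and 2581 and 2648 in the rescue (difference 0.64, SE 0.11). G3BP2 was not part of the transgene, and it was called higher without arsenite as well, at 1677 and 1660 against 2402 and 2432 (0.55, SE 0.08, in the authors' deposited table).

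**Figure D1:**
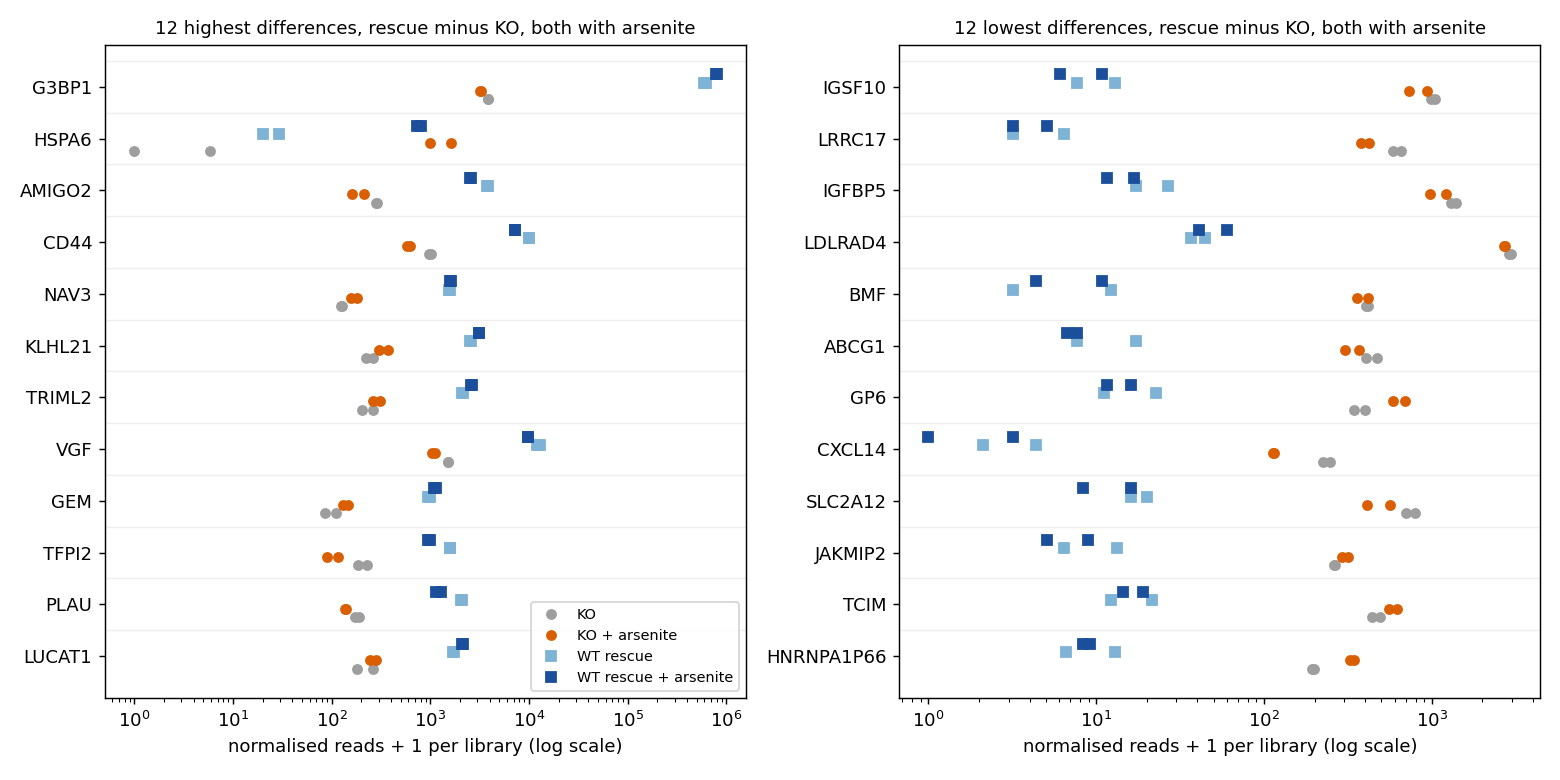
Normalised reads per library (log scale) of the genes with the highest and the lowest differences, plotted as reads + 1 for the 12 at each end, in knockout (circles) and wild-type rescue cells (squares) without and with arsenite. Rescue and knockout libraries stand apart in the same direction with and without arsenite for every gene except HSPA6, whose treated rescue libraries lie below the treated knockout.

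The genes that stood highest in the rescue beside G3BP1 were at least 8.10-fold above the knockout in the reads, except HSPA6. CD44, the hyaluronan receptor, was at 587 and 623 normalised reads in the treated knockout and at 7208 and 7290 in the treated rescue (difference 3.60, SE 0.13). AMIGO2, an adhesion protein, went from 160 and 213 to 2510 and 2598 (13.7-fold, 3.74, SE 0.22), and VGF, a secreted neuropeptide precursor, from 1052 and 1104 to 9840 and 9704 (9.07-fold). In each of them both rescue libraries stood far above both knockout libraries, without overlap. These genes were chosen for their large differences, so their separation gives no separate support. Such separation was common, and libraries of the treated groups overlapped for only 2592 of all 16533 genes tested. PLAU, the urokinase protease, was at 137 and 139 against 1273 and 1149, and TFPI2, a secreted protease inhibitor, at 89.8 and 117 against 1001 and 950. NAV3, the ubiquitin ligase adaptor KLHL21, TRIML2, the small GTPase GEM and the long noncoding RNA LUCAT1 complete the top of the list, with differences of 2.98 to 3.32. HSPA6 was listed there as well and is described with the heat-shock genes, because its reads went the other way.

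The 12 genes at the other end were nearly silent in the rescue. IGSF10, which encodes a secreted immunoglobulin-domain protein, was at 730 and 937 normalised reads in the treated knockout and at 5.1 and 9.8 in the treated rescue (difference -6.46, SE 0.32). IGFBP5, a binding protein of insulin-like growth factors in the bone matrix, was at 977 and 1215 against 15.7 and 10.6 (83.3-fold lower in the rescue, -6.08, SE 0.26). LDLRAD4, a membrane protein that restrains TGF-beta signalling, was at 2676 and 2718 against 59.5 and 39.9 (54.2-fold lower). BMF, a pro-apoptotic BH3-only protein, ABCG1, a cholesterol exporter, and the glucose transporter gene SLC2A12 were at 303 to 565 in the knockout and at 3.4 to 15.2 in the rescue. The other 6 were LRRC17, the platelet collagen receptor gene GP6, the chemokine gene CXCL14, JAKMIP2, TCIM and the pseudogene HNRNPA1P66, whose reads may belong to HNRNPA1 copies. Over all 12, no knockout library was below 112 and no rescue library was above 59.5.

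These extreme gaps were present without arsenite too. For 10 of the highest genes (all but G3BP1 and HSPA6) the rescue was 7.61 to 13.2-fold above the knockout without arsenite and 8.10 to 13.7-fold above it with arsenite. None of the 10 had a called change of the gap with arsenite by the deposited values, whereas limma on the reads called one for CD44 (0.23, adjusted p 0.026), NAV3 (-0.39, adjusted p 0.015) and PLAU (-0.37, adjusted p 0.022). The 12 lowest genes were all called lower in the authors' deposited table without arsenite, where their untreated rescue libraries lay between 1.1 and 43.5 normalised reads. The change of the gap could be tested for 6 of the 12 and was called for GP6 alone (-0.82, SE 0.22), which had risen from 396 and 344 to 686 and 581 in the knockout with arsenite. The GP6 call was lost in limma on the reads (-0.99, adjusted p 0.127). Of the 24 genes, G3BP1 was the only one that differed between the wild-type and the NTF2-deletion rescue with arsenite by the same test. Limma on the reads also called GEM higher with wild-type G3BP1 (0.39, adjusted p 0.045).

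The immediate-early genes were mostly lower in the treated rescue, although most of them were higher in the untreated rescue. These genes encode AP-1, EGR and NR4A transcription factors and the phosphatases and RNA-binding proteins that limit them, and stress kinases switch them on within minutes. Of the 35 tested, 22 were lower in the treated rescue, 8 were higher and 5 were not called, with a median difference of -0.74 where the median of all genes tested was 0.02. With the shift of the bulk subtracted the counts stayed at 22 and 8. Without arsenite the list lay the other way, with 25 members higher and 4 lower in the rescue, where 28% of all genes were called higher and 23.3% lower. Measured in the reads, arsenite raised the list at its median 6.11-fold in knockout cells and 1.42-fold in rescue cells. The response was larger in the knockout for 35 of 35 members, beside 7114 of all 16533 genes tested.

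EGR2, the transcription factor whose promoter is shown above, was at 6682 and 6318 normalised reads in the treated knockout and at 296 and 271 in the treated rescue (23.0-fold lower, -3.99, SE 0.28). Unlike most of the list, EGR2 was lower in the rescue before arsenite too. It was then at 119.8 and 170.2 in the knockout and at 44.6 and 42.5 in the rescue (-1.58, SE 0.33, in the authors' deposited table). ATF3, a repressor of the ATF/CREB family, was at 16003 and 16811 against 1572 and 1634 (10.2-fold lower, -3.20, SE 0.15). Before arsenite it was at 206 and 242 in the knockout and at 777 and 712 in the rescue, so its order reversed with the treatment. FOSB, an AP-1 subunit, was at 7889 and 8934 against 715 and 724, and started from 25 and 22.2 in untreated knockout and 203 and 153 in untreated rescue cells. NR4A3, an orphan nuclear receptor, was at 696 and 743 against 47.7 and 42.4. It started from few reads, at 4.4 and 9.9 in untreated knockout and 25 and 32.5 in untreated rescue cells. No library of the treated rescue overlapped the treated knockout for these 4 genes, and over all 16533 genes tested only 2592 overlapped. The 4 were chosen for the largest called differences of the list, so their separation gives no separate support.

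The change of the gap with arsenite was tested for each gene as the arsenite response of rescue cells minus that of knockout cells, 2 tables that share no library. Over 15648 genes this excess was called lower for 420 (2.68%) and higher for 285 (1.82%). Of the 35 immediate-early genes it was lower for 33, the exceptions being JUND and DUSP6, and higher for none. The largest were FOSB (-5.84, SE 0.21), ATF3 (-5.03, SE 0.11), NR4A3 (-4.75, SE 0.31) and EGR4 (-4.58, SE 0.31). For FOS it was -3.72 (SE 0.17). FOS rose 84.3-fold with arsenite in the knockout, from 71.9 and 83.9 to 6575 and 6546, and 6.37-fold in the rescue, from 138 and 146 to 912 and 894. DUSP1, the phosphatase that inactivates stress kinases, went from 173 and 173 to 2906 and 2413 in the knockout and from 413 and 451 to 899 and 970 in the rescue. CCN1 and CCN2, secreted matrix-associated targets of SRF and YAP, were at 15799 and 15737 and at 8895 and 9496 in the untreated rescue, and at 8448 and 8522 and at 8178 and 7836 with arsenite. In the knockout the same 2 genes went from 4961 and 5056 to 27210 and 25241, and from 4819 and 4534 to 41867 and 39945. The 8 members still higher in the treated rescue were FOSL1, ARC, KLF2, DUSP5, MYC, PPP1R15A, KLF10 and KLF6, at 0.80 to 1.43. FOSL1, an AP-1 subunit, was 11.3-fold higher in the rescue without arsenite and 1.92-fold higher with it, at 4794 and 4690 against 2476 and 2466.

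**Figure D2:**
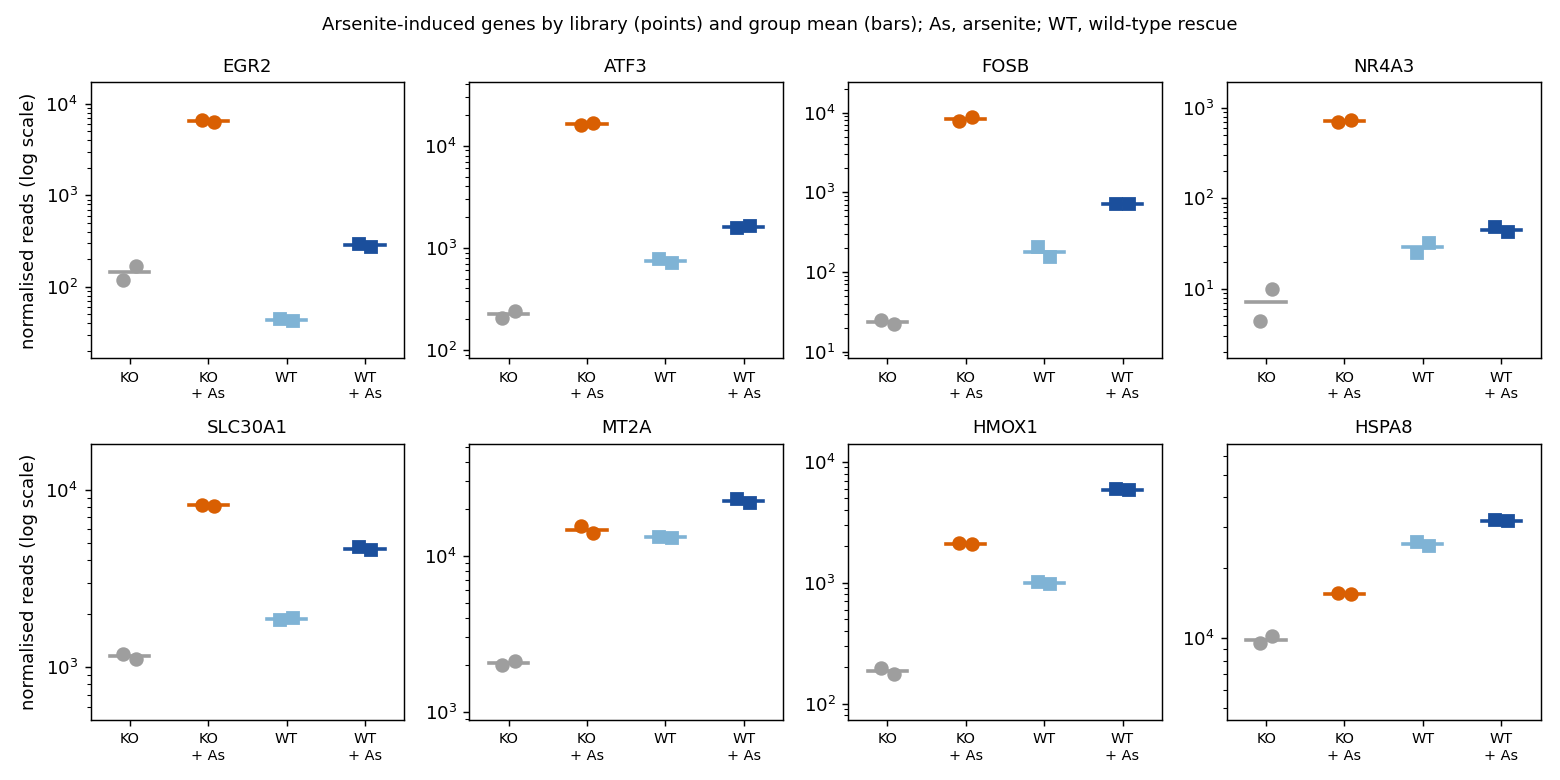
Normalised reads per library (log scale) of arsenite-responsive genes in knockout and wild-type rescue cells without and with arsenite, one point per library and a bar at each group mean. EGR2, ATF3, FOSB, NR4A3 and SLC30A1 end lower in the treated rescue than in the treated knockout, whereas MT2A, HMOX1 and HSPA8 end higher.

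Heat-shock chaperones were divided. Of 23 tested, 12 were listed as higher in the treated rescue and 5 as lower, with a median of 0.26. After subtraction of the bulk shift 8 stayed higher and 5 lower, and limma on the reads called 11 higher and 8 lower. The constitutive HSP70 gene HSPA8 was at 15585 and 15379 normalised reads in the knockout and 31932 and 31667 in the rescue (2.05-fold, 1.09, SE 0.07). HSP90AA1, HSP90AB1, HSPA4, HSPD1, STIP1 and FKBP4, cytosolic and mitochondrial folding factors, were higher by 0.46 to 1.06. The lower 5 were the small heat-shock proteins CRYAB and HSPB1 and the J-domain co-chaperones DNAJB4, DNAJA4 and DNAJB1. CRYAB was at 884 and 885 against 85.9 and 86.4 (10.3-fold lower, -3.22, SE 0.23) and DNAJB4 at 1369 and 1295 against 506 and 480 (2.70-fold lower).

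The arsenite response of chaperone genes was smaller in the rescue. The excess was lower for 17 of 23 and higher for HSPA6 alone. The near-identical inducible HSP70 genes HSPA1A and HSPA1B, whose reads may be shared, rose 22.6-fold and 30.3-fold in the knockout and 10.4-fold and 12.2-fold in the rescue. Their treated levels were 13351 and 10835 against 8266 and 9058 for HSPA1A and 13464 and 10180 against 7786 and 8151 for HSPA1B. Neither was called by the difference of the deposited values (-0.12, SE 0.18 and -0.04, SE 0.20), whereas the reads placed both lower in the rescue (-0.48 and -0.56). HSPA6, an inducible HSP70 gene nearly silent in unstressed cells, was the member for which the deposited values misled. In the reads it went from 0 and 4.9 to 1623 and 992 in the knockout and from 28.3 and 19 to 809 and 737 in the rescue. The deposited values gave it a difference of 6.17 (SE 0.51) and an excess of 2.88, while the reads gave -0.72 (limma adjusted p 0.215) and -4.56. Its deposited fold change with arsenite in the knockout was 0.92 on the log2 scale in the authors' deposited table. The HSPA6 difference is therefore not counted as support for any statement here, and without it 11 chaperones were higher.

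Metallothioneins are small zinc- and arsenic-binding proteins under MTF1. Of 4 of them and the zinc exporter gene SLC30A1, 1 was higher and 2 were lower in the treated rescue, and the excess was lower for all 5. Without arsenite 3 of the 5, MT2A, MT1E and SLC30A1, were called higher in the rescue in the authors' deposited table. MT2A was at 2004 and 2112 in the untreated knockout and 13100 and 13061 in the untreated rescue, and arsenite took it to 15390 and 13916 and to 23061 and 21616 (higher by 0.68, SE 0.09). SLC30A1, another target of MTF1, was at 8217 and 8147 in the treated knockout and at 4757 and 4563 in the treated rescue (1.76-fold lower, -0.73, SE 0.10). Before arsenite it was the rescue that was higher, at 1836 and 1886 against 1188 and 1119. MT1E was at 9432 and 8526 against 7238 and 7109 (-0.24, SE 0.10), and like other MT1 genes it can share reads with its copies. The 2 uncalled members, MT1G (0.14, SE 0.27) and MT1X (0.22, SE 0.26), lay lower in the reads, at 1670 and 1681 against 1389 and 1295 for MT1G and at 3435 and 3493 against 2846 and 2848 for MT1X, which limma called lower (adjusted p 0.030).

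NRF2 targets, which make and use glutathione, thioredoxin and NADPH, were mostly higher in the treated rescue. Of 19 tested, 14 were higher and 1 was lower, with a median of 0.68, and 12 stayed higher with the bulk shift subtracted. HMOX1, heme oxygenase, was at 2137 and 2078 normalised reads in the treated knockout and 5926 and 5815 in the treated rescue (2.79-fold, 1.63, SE 0.16). TXNRD1, thioredoxin reductase, was at 1926 and 1836 against 4793 and 4870 (2.57-fold), and its substrate gene TXN at 537 and 527 against 1555 and 1523 (2.89-fold). ABCC2, an exporter of glutathione conjugates, was at 43.8 and 50.4 against 221 and 209. Before arsenite the gap was 2.48-fold for TXNRD1 and 2.16-fold for TXN. The excess of TXN was not called by the deposited values (0.37, SE 0.14) and was called by limma on the reads (0.42, adjusted p 0.0053). HMOX1 rose 11.3-fold in the knockout and 5.88-fold in the rescue, with an excess of -0.88 (SE 0.13), although its end level was higher in the rescue.

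ATF4 targets showed no common direction, with 6 of 16 higher, 3 lower and a median of 0.37. The higher members were ATF4, the pseudokinase gene TRIB3, SESN2, CEBPB and the 2 subunits of the large amino acid transporter, SLC7A5 and SLC3A2. SLC7A5 was at 4024 and 3661 in the treated knockout and 13910 and 13755 in the treated rescue (3.60-fold, 1.89, SE 0.08). CEBPB was at 506 and 443 against 1760 and 1777, and TRIB3 at 269 and 277 against 976 and 925. The lower members were VLDLR, PHGDH and NUPR1. VLDLR, a lipoprotein receptor, was at 409 and 381 against 138 and 174 (-1.30, SE 0.21).

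Genes of the unfolded protein response of the endoplasmic reticulum were higher almost throughout. Of 16 tested, 15 were higher and PDIA4 was not called, with a median of 0.65, and 10 were higher and 1 lower with the bulk shift subtracted. HSPA5, the lumenal HSP70 BiP, was at 10676 and 11679 in the treated knockout and 24132 and 25405 in the treated rescue (2.22-fold, 1.19, SE 0.07). The BiP co-chaperones DNAJB9 and DNAJC3 were at 149 and 155 against 396 and 352, and at 568 and 604 against 1132 and 1077. In these genes arsenite lowered RNA levels, at the median of the list to 0.632 of the untreated level in the knockout and 0.796 in the rescue. The excess was higher for HSP90B1, CALR, PDIA4, PDIA6, HYOU1 and SEL1L and lower for none. Limma on the reads called it higher for 13 of the 16, beside 993 of all 16533 genes tested. CALR, a lumenal calcium-binding chaperone, fell from 21641 and 21734 to 11287 and 10529 in the knockout and from 19196 and 18621 to 12519 and 12721 in the rescue, so that its small gap changed sign.

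Interferon-stimulated genes were low in all libraries and lower in the rescue. Of 18 tested, 11 were lower and none was higher, with a median of -1.23, and 12 were lower with the bulk shift subtracted. IFIT1, an RNA-binding antiviral protein, was at 67.8 and 53.5 normalised reads in the treated knockout and 5.6 and 4.1 in the treated rescue (-3.10, SE 0.54). IFI44L was at 75.2 and 81.8 against 16.3 and 8.2 (-2.42, SE 0.46). XAF1, a pro-apoptotic interferon target, was at 117 and 147 against 25.8 and 13, and BST2, the tether of enveloped virions, at 47.0 and 51.4 against 4.5 and 11.4. No library of 1 group overlapped the other for these 4, as was the case for all but 2592 of the 16533 genes tested. They too were chosen for the largest called differences, so their separation gives no separate support. Without arsenite 12 members were lower, and of the 12 whose excess could be tested none was called. Limma on the reads gave 15 members lower and none higher with arsenite. It called a higher excess for 1, IFIT1 (2.98, adjusted p 0.037), beside 993 of all 16533 genes tested. The untreated rescue libraries held IFIT1 at only 0 and 1.1 normalised reads, so its excess rests on few reads.

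The NF-kappaB and cytokine list had 7 of 14 members higher and NFKBIZ alone lower, with a median of 0.29, and 6 higher and 2 lower with the bulk shift subtracted. IL11 was at 102 and 108 against 366 and 366 (3.48-fold) and LIF at 1276 and 1362 against 2303 and 2426 (1.79-fold), both cytokines of the IL-6 family that bone cells secrete. NFKBIZ, a nuclear inhibitor of NF-kappaB, was at 1141 and 1115 in the treated knockout and 468 and 485 in the treated rescue (-1.12, SE 0.20), and its libraries overlapped between the genotypes before arsenite, at 315 and 294 against 306 and 317. Among 15 p53 targets 5 were lower and 3, CDKN1A, PMAIP1 and AEN, were higher (median -0.26). With the bulk shift subtracted 2 were higher and 8 lower, and limma on the reads called 3 higher and 11 lower. TP53INP1 was at 699 and 852 against 98.8 and 88.0 (8.30-fold lower, -2.96, SE 0.20), and the BH3-only gene BBC3 at 426 and 448 against 161 and 153. AEN, a nuclease, went the other way, at 1212 and 1312 against 3104 and 3132. The other lower members were FDXR, PHLDA3 and FAS.

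Of 12 genes of the BMP and TGF-beta response, SMAD6, SKIL and PMEPA1 were lower and 2 were higher, among them SMAD7. With the bulk shift subtracted 1 was higher and 5 were lower, and limma on the reads called 4 higher and 6 lower. SMAD6, the inhibitory SMAD of the BMP branch, was at 913 and 815 against 84.2 and 88.0 (10.0-fold lower, -3.23, SE 0.21). SMAD7, the inhibitory SMAD of the TGF-beta branch, was at 501 and 483 against 674 and 692 (0.54, SE 0.20), and this call was lost with the bulk shift subtracted.

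**Figure D3:**
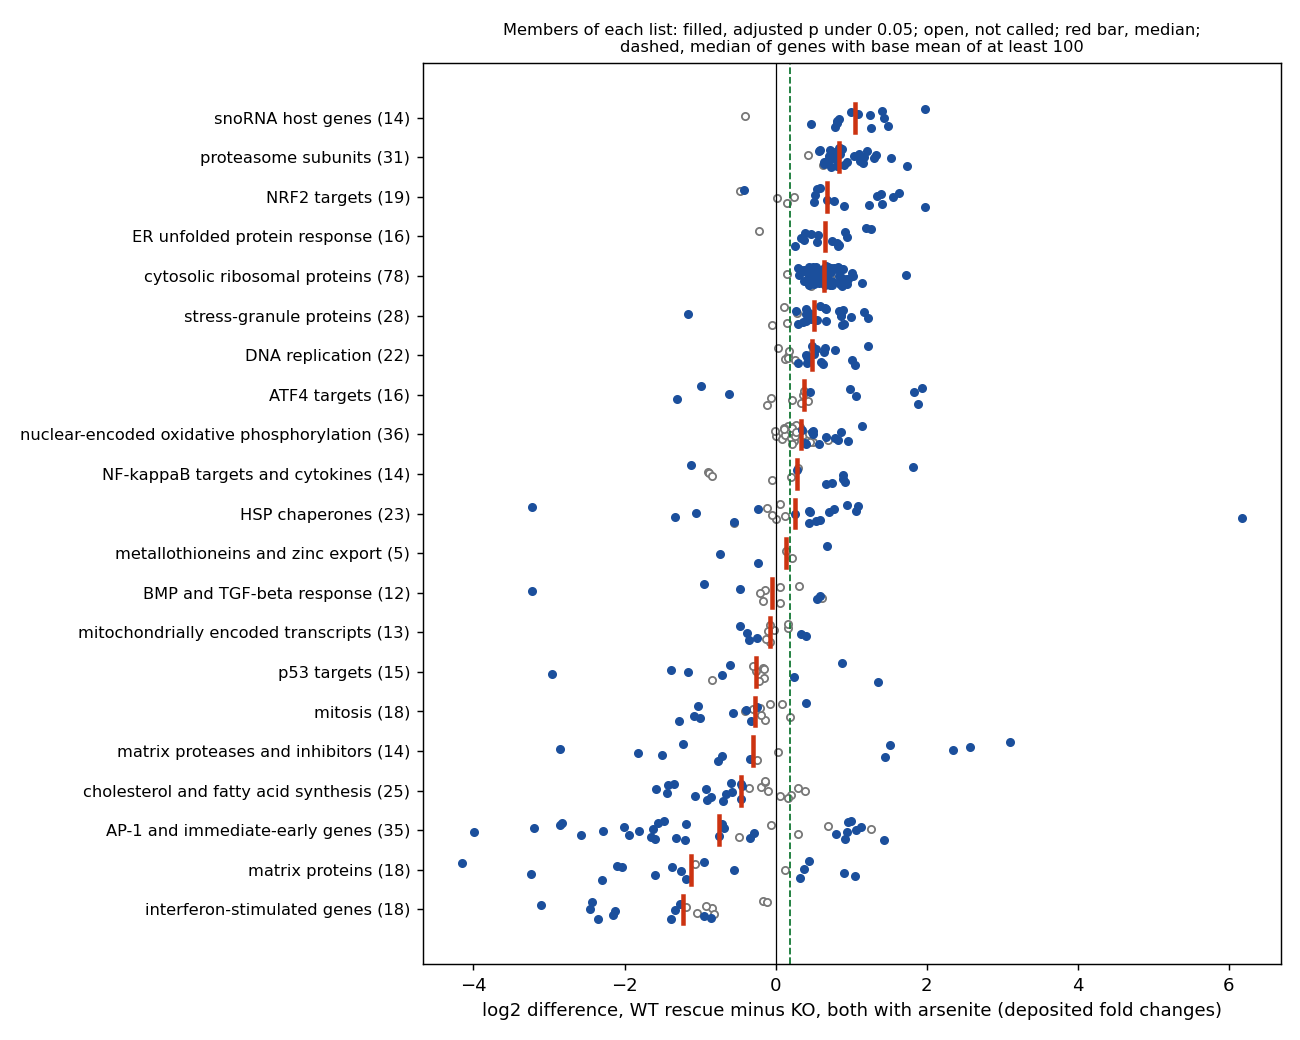
Differences between treated rescue and treated knockout cells for the members of each gene list (log2 scale), one point per gene, filled where called, and a red bar at the list median. Most proteasome, ribosomal protein and snoRNA host genes lie to the right of the dashed line, the median of genes whose base mean reached 100 (0.19), and interferon-stimulated, immediate-early and matrix genes lie mostly to the left.

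Proliferation genes split by phase. Of 22 DNA replication genes, 15 were higher and none was lower (median 0.48, 11 higher with the bulk shift subtracted). UNG, the uracil glycosylase, was at 609 and 583 against 1338 and 1401 (2.30-fold), the licensing factor gene CDC6 at 612 and 621 against 1229 and 1195, and the G1/S cyclin gene CCNE1 at 451 and 415 against 884 and 884. Of 18 mitosis genes 8 were lower and CDC20 was higher (median -0.28), and with the bulk shift subtracted 15 were lower and none higher. Limma on the reads called 15 lower and 2 higher. KIF20A, a cytokinesis kinesin, was at 1575 and 1407 against 593 and 593 (2.51-fold lower). TOP2A was at 5893 and 6128 against 2770 and 2690, and the kinetochore gene CENPF at 13406 and 14516 against 6472 and 6706.

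Lipid synthesis genes were lower in the rescue, in 15 of 25 tested and higher in none (median -0.46). The regulator SREBF1 was at 4986 and 4365 against 1549 and 1449 (3.12-fold lower, -1.59, SE 0.10). SCD, the stearoyl-CoA desaturase, was at 14299 and 14313 against 5086 and 5120 (2.80-fold lower), and the sterol sensor partner INSIG1 at 405 and 431 against 157 and 143. SREBF2 was lower too, whereas HMGCS1, SQLE and FASN were not called. SCD fell with arsenite in the knockout, from 29206 and 29680, and in the rescue, from 7577 and 7270, and its gap was smaller with arsenite than without (excess 0.47, SE 0.06).

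Nuclear-encoded oxidative phosphorylation genes were higher for 13 of 36 (36.1%) and lower for none (median 0.33). The higher share was close to that of all genes whose base mean reached 100, of which 36.7% were higher and 20.6% lower. With the bulk shift subtracted 9 were higher and none lower. Limma on the reads called 28 higher, beside 5097 of the 10782 genes whose base mean reached 100. SDHB, an iron-sulfur subunit of complex II, was at 381 and 368 against 812 and 803 (2.15-fold), and the ATP synthase gene ATP5F1B at 3235 and 3219 against 5725 and 5714. Of the 13 mitochondrially encoded transcripts 4 were lower and 2, MT-ND2 and MT-ND6, were higher (median -0.07), and with the bulk shift subtracted 6 were lower and 1 was higher. MT-ND5 was at 92107 and 99722 against 67806 and 65464 (-0.48, SE 0.07). MT-CO3 and MT-CYB were lower by 1.35-fold and 1.32-fold, and nuclear copies of mitochondrial genes may share some of these reads.

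Matrix genes were called in both directions. Of 18 matrix proteins 11 were lower and 5 higher (median -1.12), and 11 and 3 with the bulk shift subtracted. COL3A1, a fibrillar collagen, was at 15318 and 15154 against 816 and 838 (18.4-fold lower, -4.15, SE 0.07), COL5A1 at 5841 and 5774 against 1343 and 1257, and POSTN, a matricellular protein, at 87.7 and 83.9 against 4.5 and 11.4. The higher 5 were the basement membrane gene COL4A2, COL5A2 and the microfibrillar COL6A1, COL6A2 and COL6A3. Of 14 proteases and inhibitors 7 were lower and 5 higher. Among the higher, PLAUR, the receptor of PLAU, was at 338 and 316 against 1658 and 1643 (5.05-fold) and MMP9, gelatinase B, at 532 and 592 against 3213 and 3439 (5.92-fold), and the others were PLAU, TIMP1 and SERPINE2. ADAMTS5, an aggrecanase, was at 86.6 and 83.9 against 7.9 and 9.0, and the others lower were ADAMTS1, MMP2, MMP14, MMP15, TIMP2 and PLAT, the tissue plasminogen activator. The 6 osteoblast markers that reached 10 normalised reads in all 4 libraries had no common direction. RUNX2, COL1A1 and SPARC stood lower in the treated rescue, whereas ALPL, SPP1 and VIM stood higher. The transcription factor gene RUNX2 was at 265 and 242 against 73.0 and 73.4, and ALPL at 131.5 and 125.9 against 288 and 317.1. The part of RUNX2 in the matrix results was not tested.

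RNA and protein homeostasis genes were higher as lists. Of 31 proteasome subunits 29 were higher and none was lower, with a median of 0.84 and 28 higher with the bulk shift subtracted. PSMB7, a catalytic subunit of the core particle, was at 825 and 750 normalised reads in the treated knockout and 2538 and 2561 in the treated rescue (3.24-fold, 1.73, SE 0.14). PSMD2, a scaffold of the regulatory particle, was at 4416 and 4076 against 11651 and 12002 (2.79-fold). The proteasome subunits were as uniformly higher before arsenite, in 30 of 31, and the excess was called for PSMA4 alone (0.34) by the deposited values. Limma on the reads called a higher excess for 6 subunits, among them PSMD2 (0.25, adjusted p 0.010) and PSMD12 (0.26, adjusted p 0.032). Over all 16533 genes tested it called a higher excess for 993. Both rescue libraries lay above both knockout libraries for 31 of 31 subunits, beside 6910 of all 16533 genes tested.

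Cytosolic ribosomal protein genes were higher for 75 of 78 and lower for none, with a median of 0.65. RPL4 was at 9001 and 9001 against 17371 and 17698 (1.95-fold) and RPL24 at 4029 and 4312 against 7906 and 8468 (1.96-fold). The 3 that were not called were RPS19, RPL39 and RPS10, and many of these genes have near-identical processed pseudogenes with which reads can be split. With the bulk shift subtracted 65 were higher and none lower. The excess was called for none of 78 by the deposited values. Limma on the reads called it for 1, beside 1655 of all 16533 genes tested.

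The snoRNA host genes, whose spliced RNAs are degraded when translated and carry snoRNAs in their introns, were higher for 13 of 14 (median 1.05). SNHG16 was at 1086 and 1112 against 2973 and 2830 (2.64-fold), and GAS5 at 1073 and 1110 against 2534 and 2589. SNHG4, which can share reads with an overlapping gene, was at 181 and 139 against 694 and 645, and fell with arsenite from 551 and 480 in the knockout and from 1195 and 1341 in the rescue. SNHG5 was the member not called.

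Genes for other stress-granule proteins were higher for 23 of 28 and lower for TIA1 alone (median 0.51, 17 higher with the bulk shift subtracted). USP10, a deubiquitinase bound by the NTF2-like domain, was at 1458 and 1426 against 2850 and 2739 (1.94-fold), and CAPRIN1, the other partner, at 3826 and 3727 against 5902 and 5707 (1.54-fold). The RNA-binding proteins SERBP1 and YBX3 were 2.27-fold and 2.19-fold higher. TIA1, a prion-like granule nucleator, was at 1689 and 1923 against 805 and 752 (2.32-fold lower, -1.15, SE 0.14). Without arsenite it was at 1780 and 1576 against 757 and 711, and its excess was not called. The excess was called for DDX3X alone in this list (0.37) by the deposited values. Limma on the reads called it higher for 6 members, among them SERBP1 (0.25, adjusted p 0.024), beside 993 of all 16533 genes tested.

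Transcripts that bind G3BP1 were described with a list that came from RNA immunoprecipitation of G3BP1 in Flp-In T-REx cells, a line of embryonic kidney origin, with genes at least 2-fold enriched over input counted as bound and genes at least 2-fold below input as depleted. Of 2727 bound genes tested 1103 (40.4%) were higher and 321 (11.8%) lower (median 0.36), and of 4422 depleted genes 771 (17.4%) were higher and 1031 (23.3%) lower (median -0.16). Among genes whose base mean reached 100 the medians were 0.43 over 2135 bound and -0.04 over 2848 depleted genes, beside 0.19 over all 10782. The bound list also lay higher without arsenite, at a median of 0.22 in the authors' deposited table, where depleted genes were at -0.13. The excess was higher for 86 (3.22%) and lower for 41 (1.54%) of 2670 bound genes, and higher for 20 (0.475%) and lower for 179 (4.25%) of 4214 depleted genes, beside 1.82% and 2.68% of all genes. Limma on the reads called it higher for 294 and lower for 56 of the 2727 bound genes. Of the 4422 depleted genes it called 103 higher and 280 lower. Over all 16533 genes tested limma called the excess higher for 993 and lower for 662.

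**Figure D4:**
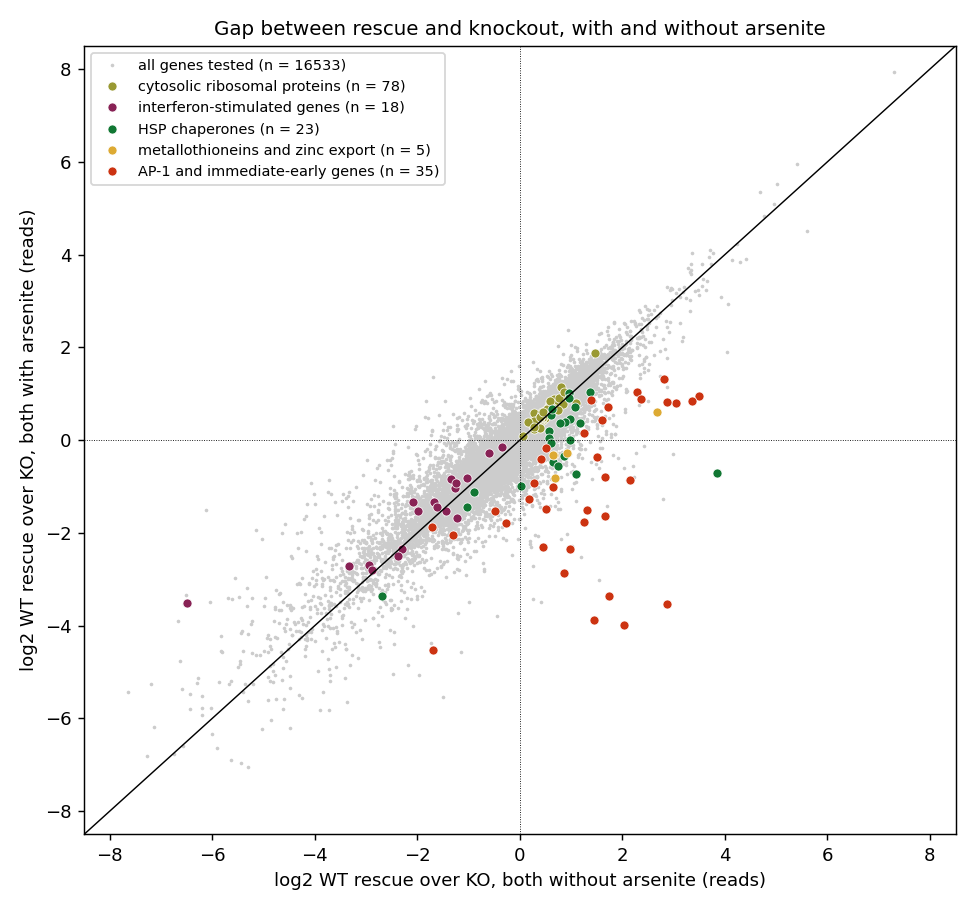
Rescue over knockout per gene with arsenite (vertical axis) against the same without arsenite (horizontal axis), both as log2 ratios of reads, with 5 gene lists in colour and the diagonal. The cloud follows the diagonal with r of 0.905 over 16533 genes, and the immediate-early genes lie on or below it.

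Across all genes the gap with arsenite resembled the gap without. Of the 7500 genes called with arsenite, 6772 were also called in the authors' deposited table without it, and 6727 of these (99.3%) had the same direction. The read ratios of the 2 comparisons, which share no library, correlated at 0.905 over 16533 genes and at 0.941 over those whose base mean reached 100, as a description over genes that are not independent replicates. Opposite directions were found for 45 genes, 38 higher in the rescue without arsenite and lower with it, and 7 the reverse. Of the 38, 13 were on the immediate-early list, and the others included the serum response factor gene SRF and the muscle and adhesion protein genes TAGLN, ANKRD1 and ZYX, named after their values were seen. TAGLN, an actin-binding protein, rose from 272 and 322 to 6780 and 6075 in the knockout and from 698 and 655 to 1052 and 1201 in the rescue. SRF itself went from 903 and 1034 to 5816 and 5558 and from 1615 and 1702 to 2068 and 1990. The 7 others were CALR, PDIA6, DDOST, GOLM1, HACD3, KDELR2 and RCN1, proteins of the endoplasmic reticulum and Golgi.

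Few genes were called between the wild-type and the NTF2-deletion rescue under arsenite. Of 16553 genes tested, 8 (0.0483%) were higher with wild-type G3BP1 and 5 (0.0302%) were lower, and limma on the reads called 133 higher and 42 lower. HMOX1 was at 5926 and 5815 normalised reads with wild-type G3BP1 and 3564 and 3434 with the deletion (0.77, SE 0.15). HSPA1A was at 8266 and 9058 against 5166 and 5620 (0.71, SE 0.12), HSPA1B alike (0.69, SE 0.12), and DNAJB1 at 10128 and 10297 against 7313 and 7273 (0.51, SE 0.09). JUN was at 11893 and 11822 against 8908 and 9133, and the long noncoding RNA NEAT1 at 8922 and 8892 against 6487 and 6421. ANKRD1 and DUSP2 complete the higher 8. Without arsenite HMOX1 was already at 1019 and 976 with wild-type G3BP1 against 557 and 522 with the deletion. NEAT1 was then at 5940 and 6013 against 4412 and 4774. ANKRD1, DUSP2, JUN, DNAJB1 and HSPA1B also stood higher with wild-type G3BP1 before arsenite. HSPA1A overlapped, at 817.2 and 842.7 against 815.2 and 837.5. The change of these gaps with arsenite was not tested. For JUN, DNAJB1 and ANKRD1 the treated knockout was higher than both rescues, at 22889 and 19981, 14107 and 11743, and 16383 and 17849. The same held for NEAT1, at 11709 and 12319, HSPA1A, at 13351 and 10835, and HSPA1B, at 13464 and 10180. For DUSP2 the treated knockout lay between the rescues, and for HMOX1 it lay below both. Among the lower 5, G3BP1 was at 784731 and 803026 against 955601 and 977487 (-0.26, SE 0.06). Its processed pseudogene G3BP1P1, whose reads may come from the transgene, was at 189 and 178 against 1329 and 1465. Both stood lower without arsenite too, G3BP1 at 621709 and 591137 against 839200 and 804718. G3BP1P1 was then at 197.8 and 176.8 against 1242.5 and 1278.2. The other 3, CNTNAP2, SMANTIS and RHPN2P1, were near 0 in both rescues, and the reads did not place them apart.

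**Figure D5:**
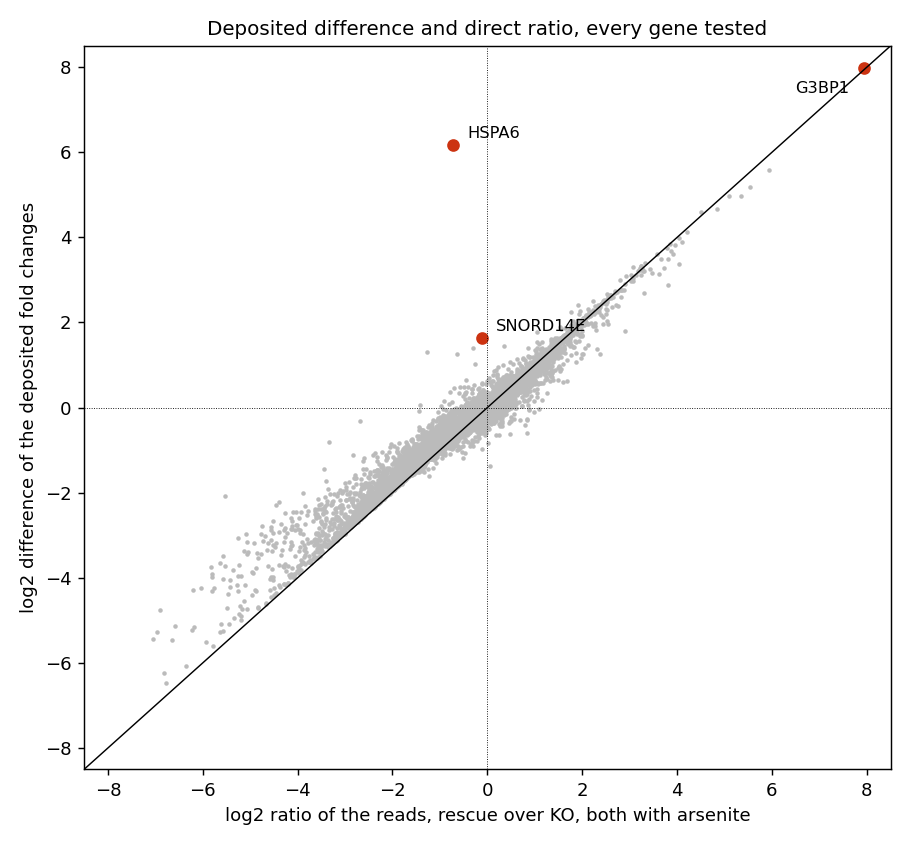
Deposited difference per gene (vertical axis) against the log2 ratio of treated rescue to treated knockout in the reads (horizontal axis), with the diagonal. HSPA6 stands far above the diagonal, at 6.17 against -0.72.

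A prior had pulled the deposited values toward 0, by different amounts in the 2 tables, which moves a difference away from the ratio of reads for genes near 0 in the untreated knockout. Of the 7500 called genes 7490 had the same sign and a call in limma on the reads, and 2 had the opposite sign. These were HSPA6 and the small nucleolar RNA gene SNORD14E, at 58.5 and 76.6 against 62.9 and 60.3 in the treated groups. For 170 genes the deposited difference and the read ratio were more than 1 apart on the log2 scale. Limma on the reads called 5883 genes higher and 5357 lower, and for the excess 993 higher and 662 lower, so that its larger share for the excess was on the higher side.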

How the data were processed

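RNA-seq of 12 libraries in 6 groups of U2OS cells was used, from poly-A RNA prepared as stranded libraries per the labels' protocols. Alignment used STAR 1.5.3 and testing DESeq2 2.11.40.6, per the submitters' processing notes. The genome build, the annotation and the use of strand in counting are not given in the sources used here. The authors' deposited base mean is a signal, normalised reads averaged over the libraries of a table. Fold changes as deposited by the authors are log2 values with standard errors. A normal prior had pulled them toward 0, with a width of 0.278 to 1.34 that differs between tables. The deposited p-value and adjusted p-value are the authors' own. The authors' deposited score is the Wald statistic, which was not used further.

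The difference of 2 deposited log2 fold changes was divided by the root of their summed squared errors and tested against a normal distribution, two-sided, with Benjamini-Hochberg adjustment over all genes whose base mean reached 10 in each of them. A call needs an adjusted p under 0.05. Of the genes tested, 16512 had a symbol in the name table. The 4 summary rows of each table were left out, and 0 columns of other samples were present. Whole reads per library were solved from the base means of the 7 tables for all 38909 genes with a read, and a log2 level uses reads over size factor with a pseudocount of 0.5. These reads were tested with limma 3.58.1 in R 4.3.3 (limma-trend) as an alternative. Tables were handled in Python 3.11.15 with pandas 2.3.3. The pairs of libraries of a group differed by more than sampling alone gives, with mean squared standardised differences of 1.78 to 3.37, so none was taken for a repeat deposit of the other.

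Named genes were G3BP1 and G3BP2, the 12 highest and 12 lowest differences (called, base mean of 100 or more, with a symbol), and up to 4 called members with the largest differences in each of 21 gene lists. The genes, lists and comparisons were chosen with earlier results of these data known. Genes outside this rule were named after their values were seen, to identify the members behind counts. Gene sequences came from RefSeq (GRCh38.p14). Reads of 16279 genes were simulated for the comparison of treated rescue and treated knockout. The difference test recovered 52% of changes of 1 and 90% of changes of 2 on the log2 scale, with 0 false among 142 calls. Limma recovered 71% and 99% with 8 false among 178. The simulation kept untreated knockout levels off 0, so genes such as HSPA6 were not represented. Only 100 genes changed at each size, with no gap between the untreated groups. The difference test was given the simulated spread, so its 0 false calls hold for these settings only. Some members of the gene lists are counted but not reported by name here. The first experiment of the series and the RNA-editing libraries were not used here.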

Additional observations from a re-analysis of the deposited data

Results flagged for a closer look

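For 21 named genes the gap between rescue and knockout differed with and without arsenite, by the test of the difference itself (the arsenite response of rescue cells minus that of knockout cells, adjusted p under 0.05 over all genes tested). Among the transcription factors of the immediate-early list this excess was -5.84 for FOSB, -5.03 for ATF3, -4.75 for NR4A3 and -2.97 for EGR2. Of the metal-responsive genes it was -2.07 for MT2A, -1.52 for SLC30A1 and -0.999 for MT1E. Among stress and chaperone genes it was -0.88 for HMOX1, -0.75 for CRYAB, -0.51 for DNAJB4 and -0.35 for HSPA8. The calls of DNAJB4 (-0.40, adjusted p 0.136) and GP6 (-0.99, adjusted p 0.127) were lost in limma on the reads, and that of CRYAB with the shrinkage undone (-0.70, adjusted p 0.192). The regulators NFKBIZ (-1.28) and SMAD7 (-0.72), the platelet receptor gene GP6 (-0.82) and the kinetochore gene CENPF (-0.28) also had a lower excess. A higher excess was found for the snoRNA hosts SNHG4 (0.64) and SNHG16 (0.36), for UNG (0.49), for SCD (0.47) and for G3BP1 itself (0.61). HSPA6 had a deposited excess of 2.88, against -4.56 in the reads.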

How the results depend on the processing

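Of the 7500 genes called between treated rescue and treated knockout, 7490 were also called in the same direction by limma on the recovered reads. The number called was 9548 with the shared error of the untreated knockout removed, 7127 with the shrinkage undone, 7183 after centring, 6871 and 7271 at base mean minimums of 50 and 1, and 11240 with limma. It moved to 3370 with a minimum difference of 1, 11417 with a pseudocount of 5 and 11622 with the 4 libraries alone, and was 10015 to 10392 when each library was left out in turn. Centring also turned the split, to 3065 higher and 4118 lower. The excess was called for 705 genes, for 673 with the shrinkage undone, for 744 at a minimum of 50, and for 1655 with limma, of which 993 were higher. Leaving out single libraries gave 931 to 1749, and it was more than 1.5 times below the limma count without library 1 of the untreated rescue (1066) or without library 1 (976) or 2 (931) of the treated rescue. The wild-type and deletion rescues differed in 13 genes, in 78 with the shared error removed, in 11 with the shrinkage undone and in 175 with limma, and in 29 to 50 when any of the 4 libraries was left out. Without arsenite limma called 11248 genes and 10240 to 10476 when a library was left out.

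Among the named genes, HSPA6 reversed under limma, to -0.72 (-0.71 with a pseudocount of 5), and to -1.07 to -0.36 with a library left out. Its excess reversed to -4.56, and to -6.28 to -2.84 with a library left out. The uncalled excess of AMIGO2 ran from -0.14 to 0.27 with a library left out, and turned to 0.27 without library 2 of the treated knockout. The excess of named genes lost its call in 28 values, those of GP6, DNAJB4, CRYAB and CENPF, and gained one in 87, and limma with all libraries lost 2 calls and gained 15. MT1E was no longer called at a base mean minimum of 1 (adjusted p 0.054), nor SMAD7 after centring (adjusted p 0.144). The other 1259 values of named genes with arsenite kept their direction and their call. The cause of these changes was not tested, except that the reads hold no shrinkage. Alternatives that leave out a library for the excess, for the deletion rescue and without arsenite, and limma without arsenite, were chosen after seeing the data. A lone library left in a group is assumed to vary like the other groups. No paired analysis was possible because the recovered reads carry no replicate numbers. With 2 libraries per group, small differences of low genes were not detectable at this depth.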

Other observations

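Genes outside the lists with opposite gaps with and without arsenite, picked after their values were seen, included the mitochondrial ribosomal RNAs and actin-related genes. MT-RNR1, the small mitochondrial ribosomal RNA, went from 24350 and 29304 normalised reads to 45969 and 48141 in the knockout and from 33539 and 33414 to 27991 and 26047 in the rescue (excess -1.12, SE 0.13). MT-RNR2, the large one, went from 158481 and 180472 to 236632 and 248150 in the knockout and from 205120 and 205579 to 186246 and 179702 in the rescue. Its direction was the same as that of MT-RNR1, and nuclear copies of both may share their reads. RHOB, a small GTPase of actin and endosomes, went from 1544 and 1675 to 5967 and 5384 in the knockout and from 2630 and 2596 to 2401 and 2363 in the rescue. GLIPR1, which encodes a protein of the CAP family, went from 290 and 278 to 2148 and 2296 in the knockout and was at 513 and 482 against 499 and 514 in the rescue. MCL1, an anti-apoptotic BCL2 relative, went from 3099 and 3102 to 15710 and 15547 in the knockout and from 4437 and 4654 to 9828 and 9495 in the rescue. All 5 were picked among genes called lower in the treated rescue, so the order of their treated libraries gives no separate support.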
